A study of Mus musculus with 2 samples.

Results

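Pancreatic polypeptide (PP) cells of mouse islets were selected by measured hormone transcripts: a cell was taken where at least 10% of its counted RNA molecules (UMIs) came from Ppy, where Ppy UMIs outnumbered both Gcg and Sst UMIs, and where Ins1 and Ins2 together made up under 15%. This gave 204 PP cells of 14049 kept cells, 91 of 6568 in the library of flox/flox mice and 113 of 7481 in the library labelled BcBKO. The study concerns BAF60C, a subunit of BAF chromatin-remodelling complexes encoded by Smarcd3, in type 2 diabetes. The flox/flox group served as the control, and BcBKO stands for a beta-cell-specific ablation, with Pdx1-cre named among the mice of the series. The Pdx1 promoter is active in the embryonic pancreas from which all islet endocrine cells arise, so this driver is not limited to beta cells. Each group is 1 library of dispersed islet cells, pooled from at least 3 mice and tagged at the 3′ end of each RNA. With 1 library per group, no difference between the groups can be set against a spread between mice, no p-value is given, and every interval below covers counting error only.

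PP cells are the islet endocrine cells that secrete pancreatic polypeptide, a peptide of the neuropeptide Y family released after a meal through vagal signals, which slows pancreatic secretion and food intake. They are rare in most of the pancreas and concentrated in the part that forms from the ventral bud. Peptide YY, encoded by Pyy, belongs to the same family and in the mouse is made in several islet cell types. Glucagon (Gcg), somatostatin (Sst) and insulin (Ins1, Ins2) mark the alpha, delta and beta cells with which PP cells are compared here.

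The genes of both peptides are neighbours on mouse chromosome 11 and are read from the minus strand. In GENCODE M21 (GRCm38) Ppy spans chr11:102099930-102101319 and Pyy spans chr11:102106676-102107832, which leaves 5357 bases between them. Because both transcripts were abundant in the same cells, the 120 bases upstream of each transcription start are shown, from RefSeq's GRCm38.p6, 5′ to 3′ on the minus strand. Capitals mark the letters TATAA.

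Ppy: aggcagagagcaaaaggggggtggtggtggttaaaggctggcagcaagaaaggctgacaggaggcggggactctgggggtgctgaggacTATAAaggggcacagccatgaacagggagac
Pyy: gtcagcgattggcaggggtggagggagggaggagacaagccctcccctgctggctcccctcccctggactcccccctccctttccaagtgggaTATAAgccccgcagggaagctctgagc

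The Ppy window is chr11:102101320-102101439 and the Pyy window is chr11:102107833-102107952. The capitals begin 31 bases before the start of Ppy and 27 bases before the start of Pyy shown; RefSeq's table has another Pyy start, before which the letters begin at 83 bases. TATAA was found, on either strand, in 8.53% of the 32851 windows of this length in RefSeq's table. Ppy also holds TATAAA, which occurred in 4.19% of windows and includes the shorter motif. The E-box letters CANNTG occurred in 40.2% of windows, with 1 match in that of Pyy and 0 in that of Ppy, and TAAT occurred in 31.8% of windows and in neither of these.

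The deposited counts comprised 9438 barcodes with 167670996 UMIs for flox/flox and 10775 barcodes with 178647270 UMIs for the library labelled BcBKO. Kept cells had medians of 17845 and 17675 UMIs. Alpha and delta cells were taken by the same rule with Gcg or Sst in the place of Ppy, which gave 399 and 685 alpha cells and 235 and 288 delta cells; 2938 and 3357 beta cells had insulin at 15% or more and the other hormones each under 1%. Of the deposited barcodes, 23 occurred in both libraries, 11 of them among kept cells and 1 among PP cells of each. Islet hormones were also counted in endothelial cells, which do not make them and which serve here as the measure of free RNA. Values are given for flox/flox first and for the library labelled BcBKO second, and levels are counts per 1000000 UMIs summed over the cells of a class (CPM), unless stated otherwise.

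Smarcd3, the gene that the title points to, was checked first. PP cells of the flox/flox library had 0 Smarcd3 UMIs among 2543875, which allows up to 1.18 CPM at 3 counts. PP cells of the library labelled BcBKO had 4 UMIs in 3 cells, or 1.69 CPM (95% interval 0.460 to 4.32). The targeted gene was thus at or near 0 in PP cells of both libraries, and a loss could not be measured in them. In beta cells Smarcd3 was at 0.381 and 0.646 CPM, so it was not lower in the library labelled BcBKO there either. The 3′ tags do not show whether a deleted exon is missing from the transcript, since the floxed exons are not given in the sources used here. Smarcd1 and Smarcd2, the other members of the BAF60 family, were detected in PP cells at 14.9 and 17.3 CPM and at 12.2 and 10.5 CPM. Pdx1 was detected in 31 of 91 and 41 of 113 PP cells, at 20.8 and 29.5 CPM, against 47.2 and 63.2 CPM in beta cells.

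PP cells made up 2.48% (95% Clopper-Pearson interval 2.00 to 3.04) of the 3663 endocrine cells of the flox/flox library and 2.54% (2.10 to 3.05) of the 4443 in the library labelled BcBKO. The difference was 0.0590 percentage points (Newcombe interval -0.640 to 0.740), which was not detectable at this number of cells. Of all kept cells they were 1.39% (1.12 to 1.70) and 1.51% (1.25 to 1.81). Within the rule, 123 and 164 cells reached 10% Ppy; 11 and 22 of those had too much insulin, and a further 21 and 29 had more Gcg or Sst than Ppy. Few cells lay near the 10% Ppy threshold: 2 and 1 cells had Ppy between 8% and 10%, and 5 and 4 had it between 10% and 12%. The highest shares outside were 9.90% and 9.74% and the lowest inside were 10.5% and 10.1%. Cells near the other bound, Ppy over Gcg and Sst, were not counted. A PP cell of the library labelled BcBKO had 11.84% Ppy and 11.75% Gcg.

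Ppy filled a large part of the transcriptome of these cells. Its share, on which the cells were chosen, ran from 10.5% to 60.3% of UMIs with a median of 30.9% in flox/flox, and from 10.1% to 61.3% with a median of 35.3% in the library labelled BcBKO. Pyy, which the rule did not use, had a median share of 8.36% (range 0.223% to 25.6%) and 7.89% (0.00413% to 24.1%). It reached 1% of UMIs in 90 of 91 and 111 of 113 PP cells, so nearly every PP cell also carried Pyy at a level far over that of free RNA. Insulin transcripts had medians of 1.40% and 1.82%; summed over cells, Ins2 was at 19948 and 17156 CPM in PP cells and at 20919.9 and 24354 CPM in endothelial cells. As a share of UMIs, Ins2 was thus under its level in cells that do not make it. Per cell the order was the other way, with medians of 222 and 225 Ins2 UMIs in PP cells and 155 and 156 in endothelial cells, which are shallower. Ghrl, which marks epsilon cells, had 0 UMIs in PP cells.

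**Figure D1:**
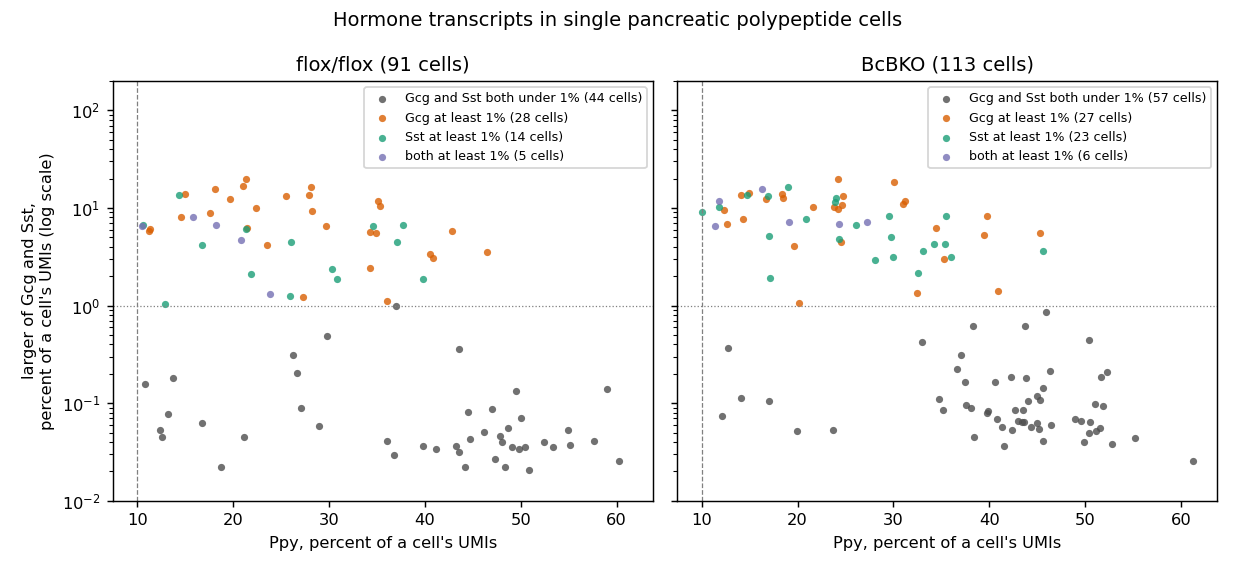
Each point is 1 PP cell of the flox/flox library (91 cells) or of the library labelled BcBKO (113 cells), placed by its share of Ppy UMIs (percent, linear axis) and by the larger of its Gcg and Sst shares (percent, log axis). The dashed line is the 10% Ppy threshold and the dotted line the 1% level that separates cells with Gcg, Sst or both from cells with neither; the 44 and 57 cells with neither have medians of 44.3% and 43.6% Ppy and reach further right than the rest.

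Pyy was not particular to PP cells. Summed over cells it stood at 96816 and 97536 CPM in PP cells, 49111 and 42234 in alpha cells and 47605 and 49219.7 in delta cells, against 209 and 383 in beta cells and 289.7 and 742 in endothelial cells. It reached 1% of UMIs in 352 of 399 and 560 of 685 alpha cells and in 233 of 235 and 286 of 288 delta cells, but in 11 and 16 beta cells. Ppy itself was spread over the same cell types, at 20142 and 22050.1 CPM in alpha cells and 33769 and 31112 CPM in delta cells, against 341182 and 332671 in PP cells. Of the alpha cells 219 and 371, and of the delta cells 69 and 99, had Ppy under 1% of UMIs. In beta cells Ppy was at 184 and 284 CPM, as a share of UMIs under its level in endothelial cells (339 and 659.8 CPM). Per cell the order was the other way, with medians of 4 and 6 Ppy UMIs in beta cells and 2 and 2 in endothelial cells, which are shallower. A UMI of Ppy was found in 84.4% and 89.6% of endothelial cells (median depth 5695 and 5459 UMIs; 47.2% and 58.9% when thinned to 2000 UMIs), so a single Ppy UMI did not mark a PP cell.

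Genes were compared between PP cells and each other class as log2((CPM + 10)/(CPM + 10)) in each library and called at 4-fold or more in the same direction in both, among genes of at least 50 CPM in either class. The classes were chosen on the same cells' transcripts, so these calls describe the classes and are no test. Because hormone transcripts take different shares of each class, the median log2 ratio of all genes was not 0: it was -0.11 and -0.18 against alpha cells, 0.62 and 0.59 against beta cells and -0.47 and -0.46 against delta cells. Scaling without hormone and mitochondrial genes moved these medians to 0.15 and 0.13, to -0.03 and 0.00, and to -0.05 and -0.06. The share of genes above 0 moved with it, from 33.1% and 22.3% to 70.0% and 68.6% against alpha cells, from 88.2% and 85.7% to 47.6% and 50.4% against beta cells, and from 5.81% and 5.54% to 43.3% and 42.6% against delta cells. Small differences between PP cells and another class are therefore not given a direction below.

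By this measure the fewest genes set PP cells apart from alpha cells. Of 1941 genes, 2 were called higher in PP than in alpha cells (0.103%), Ppy and Tspan8. Another 8 were called lower (0.412%), among them Gcg, Ttr, Irx1, Slc7a2, Slc38a5, Apoe and Dapl1. Against delta cells 10 of 2618 genes were higher (0.382%) and 33 were lower (1.26%), and against beta cells 36 of 1709 were higher (2.11%) and 20 were lower (1.17%). Of the 11 alpha-cell markers at level, 6 were called lower in PP than in alpha cells and 5 were not.

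Among transcription factors, the Iroquois genes of alpha cells were low in PP cells. Irx1 was at 10.6 and 7.17 CPM against 85.3 and 95.4 in alpha cells and was called lower. Irx2, of the same family, was at 34.6 and 43.9 CPM against 108 and 118, which did not reach 4-fold, and at 7.26 and 8.75 in delta and 0.538 and 0.586 in beta cells.

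Factors of delta and beta cells were mostly low. Hhex, the homeobox factor of delta cells, was at 16.1 and 33.8 CPM against 223 and 302 in delta cells. Pdx1 was also under its delta level of 84.3 and 109.6 CPM. Mafa had 0 UMIs in PP cells, but it was also at 0.786 and 1.24 CPM in beta cells, so its absence separates nothing here. Nkx6-1, a factor of beta cells, stood at 63.7 and 65.0 CPM in PP cells, between its levels in beta cells (139 and 139) and in alpha cells (25.5 and 25.8). Under hormone-free scaling the log2 ratio of Nkx6-1 over alpha cells was 1.41 and 1.47, on the same side as the 1.05 and 1.07 found otherwise.

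Several factors were higher in PP than in beta cells. Etv1, an ETS factor listed as PP-associated, was at 235 and 269 CPM in PP cells, 289.6 and 340.3 in alpha cells and 295 and 293 in delta cells, against 25.4 and 38.4 in beta cells. Fev, a factor of serotonin neurons and endocrine progenitors, was at 29.5 and 44.7 CPM in PP cells and at 0.265 and 0.467 in beta cells. Mean Fev UMIs per cell were 0.824 and 0.938 in PP, 0.556 and 0.562 in alpha and 0.374 and 0.375 in delta cells. Median depths in the same order were 23009 and 18093, 14582 and 11964, and 9948 and 8471 UMIs. Fev was thus not particular to PP cells. Gata6 was at 56.2 and 53.6 CPM against 3.34 and 4.16 in beta cells, and it was not called against alpha or delta cells. Meis2, a TALE-family factor, was at 202 and 209.7 CPM in PP against 364 and 413 in delta cells, 179 and 195 in alpha cells and 67.6 and 71.6 in beta cells. Of the general endocrine factors, Isl1 was at 187 and 249 CPM in PP cells, Pax6 at 169.8 and 169.6, Neurod1 at 93.2 and 94.9, Nkx2-2 at 67.6 and 84.8, Foxa2 at 60.5 and 81.4 and Prox1 at 74.7 and 82.7. Peg3, an imprinted zinc-finger gene, was at 666 and 714 CPM. In all, 0 factors were called higher and 2 lower of 21 against alpha cells, 3 higher and 0 lower of 19 against beta cells, and 1 higher and 2 lower of 25 against delta cells. Their median log2 ratio was -0.25 and -0.23 against alpha, 0.55 and 0.63 against beta and -0.68 and -0.65 against delta cells (-0.23 and -0.25 under hormone-free scaling), beside the medians of all genes given above. Nkx6-3, a homeobox factor outside the fixed list that was noticed in the table, was at 12.6 and 22.4 CPM in PP cells, against 4.11 and 3.33 in alpha, 1.61 and 2.66 in delta and 0.00827 and 0 in beta cells.

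The list of 16 PP-associated genes described these cells only in part. Tspan8, a tetraspanin of the cell surface, was at 406 and 424 CPM in PP cells and at 53.3 and 57.5 in alpha cells, a log2 ratio of 2.72 and 2.68. It was at 413 and 365 CPM in delta cells, so Tspan8 separated PP cells from alpha and beta cells (6.39 and 7.72 CPM) and not from delta cells. The 4-fold calls on this list numbered 1 higher of 3 genes at level against alpha cells, 2 higher of 3 against beta cells and 0 of 4 against delta cells. Tph1 and Slc6a4, of serotonin synthesis and uptake, the water channel gene Aqp3 and the factor Lmx1a had 0 UMIs in PP cells of both libraries. Sertm1 was at 3.93 and 4.64 CPM and higher in alpha cells (10.7 and 11.1). Cartpt, which encodes the CART peptide, was at 0.786 and 4.64 CPM, and Chodl had 1 UMI in all.

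Few genes stood over all 3 other endocrine classes at once. Hormones and genes higher in endothelial, macrophage, mural or acinar cells than in PP cells, Cd9 among them, were left out of this ranking. Of the 396 genes at level that stayed, 14 had a PP level over the highest of alpha, beta and delta cells in both libraries, and 54 did under hormone-free scaling. Ugt2b34, a glucuronosyltransferase, led this ranking with 58.2 and 53.6 CPM against 23.7 and 40.4 in alpha, 12.7 and 13.8 in beta and 5.65 and 4.19 in delta cells. Maged2, of the MAGE family, was at 105 and 99.2 CPM, with 77.5 and 77.7 in delta cells as the next highest. The margins of these genes were small: the log2 excess over the next class was 0.34 for Ugt2b34, 0.32 for Maged2 and 0.18 for Adk, the adenosine kinase gene, in the library where it was smaller. Folr1, the folate receptor, was at 188 and 181 CPM, with 175 and 158 in delta cells next. Copz2 was among the leading genes at 0.11 and stood at -0.51 under hormone-free scaling. No gene of this ranking separated PP cells from every other class by 4-fold.

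In summed levels Cd9 stood over the other endocrine classes in both libraries, and Spp1 in the flox/flox library. Cd9, a tetraspanin, was at 117 and 89.5 CPM in PP cells, 34.4 and 22.3 in alpha, 14.5 and 12.2 in delta and 2.75 and 4.74 in beta cells, and its log2 excess over alpha cells, the next class, was 1.51 and 1.62. Endothelial cells had 230.0 and 187 CPM of Cd9, while the summed endothelial markers in PP cells were 82.2 and 58.2 CPM against 13093 and 13507 in endothelial cells. Spp1, osteopontin, was at 276 and 189 CPM in PP cells and at 85.5 and 192 CPM in alpha cells, so PP cells stood over alpha cells in the flox/flox library only. Spp1 is also a duct marker, and of the other duct markers Krt7 was at 137 and 94.1 CPM in PP cells and at 137 and 105 in delta cells, while Krt19 had 0 UMIs in PP cells.

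At the low end, 4 of 80 genes at level were below the lowest of the other 3 classes in both libraries, and 1 under hormone-free scaling. Acly, ATP citrate lyase, had the lowest value, with 156 and 167 CPM in PP cells against 162 and 210.4 in alpha cells, a log2 difference of -0.04 that became 0.23 under hormone-free scaling. No gene at that level was thus clearly lowest in PP cells.

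**Figure D2:**
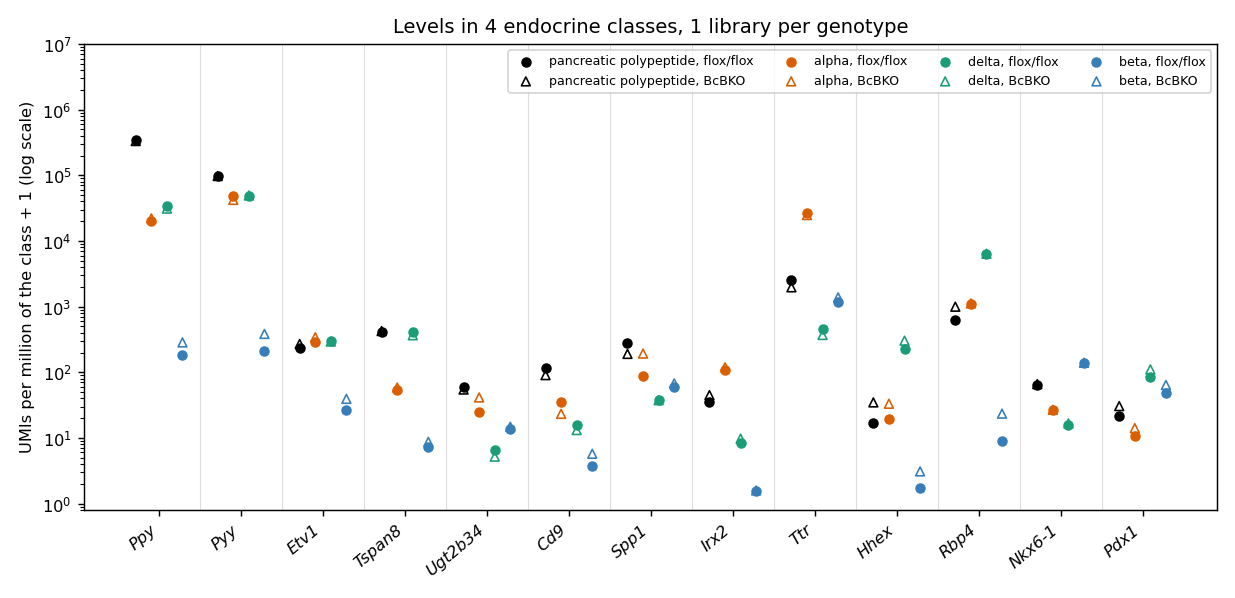
Level (CPM + 1, log axis) of 13 genes in PP, alpha, delta and beta cells; filled circles are the flox/flox library and open triangles the library labelled BcBKO. Tspan8 sits together in PP and delta cells, and Hhex, Rbp4 and Ttr are high in the delta or alpha class and lower in PP cells.

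Of the markers of other classes at level, 6 of 11 alpha, 5 of 7 delta and 9 of 13 beta genes were called lower in PP cells than in the class they mark. Ttr, transthyretin, was at 2523 and 1967 CPM in PP cells, against 26733 and 24799 in alpha and 463 and 369 in delta cells. Rbp4, the retinol-binding protein, was at 625 and 996 CPM, against 6280.2 and 6380.0 in delta, 1082 and 1118 in alpha and 7.87 and 22.4 in beta cells. Ttr was called higher than in delta cells and lower than in alpha cells, Rbp4 was called higher than in beta cells, and 5 of the 7 delta markers at level, Rbp4 and Hhex among them, were called lower than in delta cells. Of 13 beta markers at level, 9 were called lower than in beta cells: the glucose transporter gene Slc2a2 was at 9.04 and 11.0 CPM against 242 and 182, and Ucn3, urocortin 3, was at 11.0 and 11.8 against 242 and 252. Slc30a8, the granule zinc transporter, was at 108 and 83.5 CPM, against 416 and 453 in alpha and 402 and 348 in beta cells.

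Granule and prohormone-processing genes gave 0 calls of 15 at level against each class; with 0.103% to 2.11% of all genes called per comparison and direction, this count does not set the list apart. Pcsk2, prohormone convertase 2, was at 2162 and 2067 CPM in PP cells, 3267 and 3473 in alpha and 1326 and 1549 in beta cells. Pcsk1, the convertase of proinsulin, was at 26.3 and 30.8 CPM against 87.5 and 109 in beta cells. Scg2, secretogranin 2, was at 1817 and 1798 CPM in PP cells and 1157 and 1164 in alpha cells. Of the exocytosis genes, Cadps, a priming factor of dense-core vesicles, was at 48.0 and 51.5 CPM in PP, 52.3 and 56.0 in alpha and 5.24 and 3.81 in delta cells. Counts of calls on the exocytosis list were 0 of 11 against alpha cells, 1 lower of 10 against beta cells and 1 lower of 14 against delta cells.

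Few channel genes passed the 4-fold call against another class. Abcc8, the sulfonylurea receptor of the ATP-sensitive potassium channel, was at 229 and 240.1 CPM in PP cells, 287 and 299 in alpha, 428 and 446 in delta and 133 and 137 in beta cells. Kcnk3, an acid-sensitive potassium channel, was at 61.7 and 61.2 CPM, and at 0.364 and 0.671 CPM in beta cells, and it was not called against alpha or delta cells. On the ion channel list 0 of 7 genes were called against alpha cells, 1 higher and 1 lower of 7 against beta cells and 1 lower of 11 against delta cells, where their median log2 ratio was -0.85 and -0.61 (-0.42 and -0.22 under hormone-free scaling). The 4 receptor genes at level against delta cells had medians of -1.13 and -1.15 (-0.80 and -0.84), with 0 called. No receptor of the list of 54 reached 100 CPM in PP cells, and 18 had 0 UMIs. Among those detected, Ffar4, a receptor of long-chain fatty acids, was at 32.6 and 38.8 CPM in PP and 0.149 and 0.348 in beta cells. Sstr3, a somatostatin receptor, was at 34.6 and 31.6 CPM, Gpr119, a lipid receptor, at 16.9 and 20.3 and Gipr, the incretin receptor, at 15.7 and 15.2. The muscarinic receptor Chrm3 was at 11.4 and 5.91 CPM, against 0.493 and 0.665 in alpha cells. Npy1r, Npy2r, Npy4r and Npy5r, which bind pancreatic polypeptide and peptide YY, had 0 UMIs in PP cells.

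PP cells differed widely among themselves in the hormones of their neighbours. With 1% of UMIs as the level, 44 and 57 of them carried neither Gcg nor Sst, 28 and 27 carried Gcg, 14 and 23 carried Sst and 5 and 6 carried both. Gcg was thus found alone in 30.8% (21.5 to 41.3) and 23.9% (16.4 to 32.8) of PP cells, and Sst alone in 15.4% (8.67 to 24.5) and 20.4% (13.4 to 29.0). These levels were over free RNA: Gcg had a median share of 7.23% and 9.69% in the cells that carried it alone, while its summed level in endothelial cells was 891 and 2284 CPM. Sst had a median of 4.33% and 5.16% in cells that carried it alone, and 222 and 775 CPM in endothelial cells. Cells with neither hormone had the highest Ppy shares, with medians of 44.3% and 43.6% against 27.6% and 24.3% with Gcg, 26.0% and 26.1% with Sst and 18.2% and 17.7% with both. Shares within a cell sum to 100%, so a higher share of 1 hormone lowers the others.

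Cells that carried Gcg also carried more of other alpha-cell transcripts. Of 13 alpha markers, 12 and 11 were higher in the Gcg-carrying PP cells than in those with neither hormone, and 5 in each library by 2-fold or more, with median log2 ratios of 0.56 and 0.56. Of all genes at 50 CPM or more in either group, 62.4% and 76.3% were higher, and 1.23% and 2.89% by 2-fold or more; the median Ppy share was 27.6% and 24.3% in Gcg-carrying cells and 44.3% and 43.6% in cells with neither. Under hormone-free scaling 10 of the 13 markers in each library stayed higher, beside 40% and 51.0% of all genes. Ttr was at 5781 and 3734 CPM in the Gcg-carrying cells, 1538 and 1456 in cells with neither and 982 and 1051 in Sst-carrying cells. Irx1 was at 34.6 and 20.8, 2.47 and 2.94, and 0 and 1.54 CPM in the same order. Slc38a5, an amino-acid transporter gene of alpha cells (69.9 and 88.2 CPM), stayed at 4.72 and 9.45 CPM in Gcg-carrying cells and had 0 UMIs in cells with neither.

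Cells that carried Sst also carried more of other delta-cell transcripts. Of 10 delta markers, 5 in each library were higher by 2-fold or more than in cells with neither hormone, beside 5.9% and 5.51% of all genes. In any size 7 of the 10 were higher, with median log2 ratios of 0.96 and 0.87, beside 88.4% and 85.3% of all genes. Under hormone-free scaling these were 7 of 10 in each library and 54.6% and 56.4% of all genes. Hhex was at 60.2 and 83.4 CPM in Sst-carrying PP cells, 0 and 0 in cells with neither and 0 and 1.89 in Gcg-carrying cells, so the Hhex of PP cells came almost only from those with Sst, alone or beside Gcg. Rbp4 was at 1530.3 and 2402 CPM, 119 and 228, and 535 and 402 in the same order. Fam159b was at 327 and 301 CPM in Sst-carrying cells and at 17.3 and 8.81 in cells with neither, and Cd24a, a surface glycoprotein gene, at 185 and 235 against 12.3 and 6.85. In delta cells these were higher still, with Cd24a at 596 and 562 and Hhex at 223 and 302 CPM.

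Sst-carrying PP cells were also larger in counts. Their median was 35707 and 23485 UMIs and 5644.5 and 4284 genes, against 21964 and 15899 UMIs and 3358 and 2829 genes in cells with neither hormone and 21598.5 and 15516 UMIs with Gcg. Delta cells had medians of 9948 and 8471 UMIs. The doublet caller Scrublet marked 1 PP cell in each library, 1 of the 47 and 0 of the 56 cells that carried Gcg, Sst or both. Median doublet scores were 0.0695 and 0.0817 in those cells and 0.0875 and 0.0995 in cells with neither. The caller marked 1.74% and 1.60% of kept cells, and the part of doublets in the mixed hormone content was not otherwise tested. Alpha and delta markers aside, Tspan8 was at 464 and 469.7 CPM with neither hormone, 293 and 317 with Gcg and 436 and 471 with Sst, and Spp1 was at 398 and 273, 219 and 125, and 135 and 142.

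**Figure D3:**
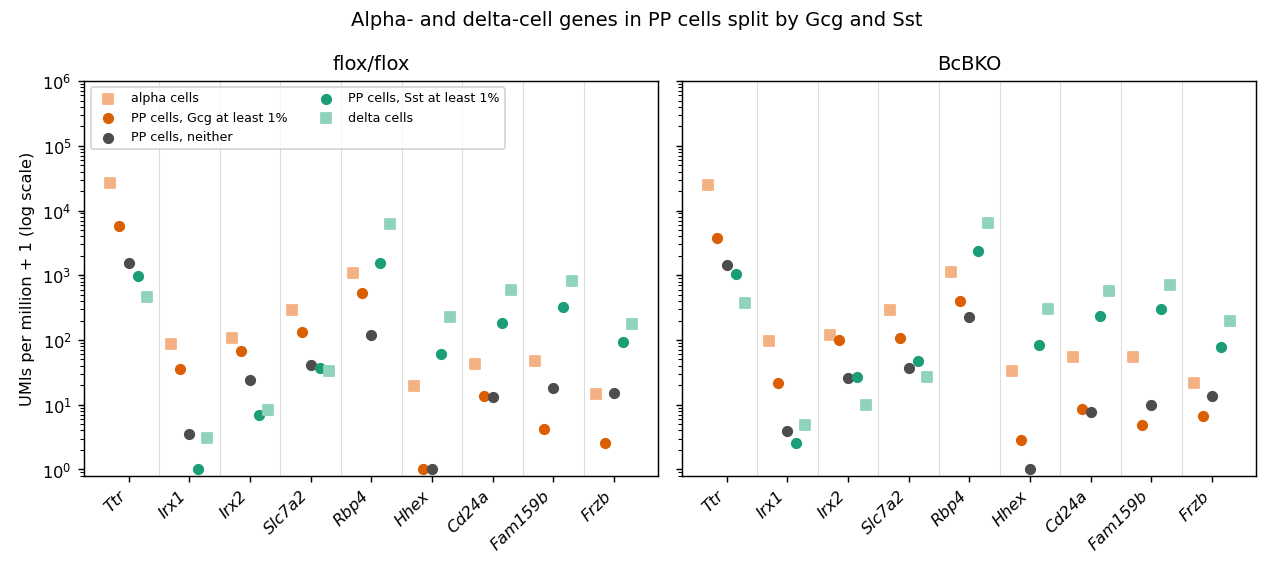
Level (CPM + 1, log axis) of 4 alpha-cell and 5 delta-cell genes in alpha cells, PP cells with Gcg, with neither and with Sst, and delta cells, for each library. Ttr, Irx1, Irx2 and Slc7a2 are highest in alpha cells, next in Gcg-carrying PP cells and lower in those with neither, and Rbp4, Hhex, Cd24a, Fam159b and Frzb are highest in delta cells and next in Sst-carrying PP cells.

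A small set of PP cells had much amylin. Among the 101 cells with neither Gcg nor Sst, 11 (7 and 4) had at least 3% of UMIs from Iapp, islet amyloid polypeptide, which beta and delta cells also make; this split was chosen after the values were seen and is a description. Their Ppy share was low, with medians of 13.2% (10.8% to 36.0%) and 15.6% (12.1% to 23.7%), against 47.0% and 43.9% in the other 90, and their median Pyy share was 3.39% and 2.80% against 9.10% and 10.0%. Chga, chromogranin A of the secretory granule, was at 12464 CPM in these 11 cells and 1224 CPM in the other 90, against 3247 in alpha, 2647 in beta and 2282 in delta cells of both libraries. Per cell, Chga ran from 3492 to 42731 CPM in the 7 flox/flox cells and from 3537 to 17232 CPM in the 4 of the library labelled BcBKO, while the others had medians of 972 and 907 CPM. The Chga level of the Iapp-rich cells was therefore over that of the alpha, beta and delta cell sums.

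The same 11 cells had 0 Irx2 UMIs, against 26.8 CPM in the other 90. Tspan8 was found in 11 of 11, at 378 against 478 CPM, and Etv1 was at 172 against 228 CPM. The deepest cell held 87621 of the 200104 UMIs of the 7 flox/flox cells, so it weighs most in these sums. Per cell, Tspan8 had medians of 293 and 283 CPM, against 427 and 438 in the others. Etv1 had medians of 53.3 and 209.5 CPM, against 202 and 199.9. Of 941 genes at level, 20 were at least 4-fold higher in the 11 cells (2.13%) and 0 were 4-fold lower, with a median log2 ratio of 0.39. Sez6l, a gene of a brain-enriched membrane protein, was at 222 against 4.56 CPM and found in 11 of 11 cells, and stood at 253 CPM in delta and 41.2 in beta cells. Pcsk1 was at 206 against 11.6 CPM in 6 of 11 cells, Prlr, the prolactin receptor, at 153 against 9.62, and Bace2, a protease of islet cells, at 195 against 10.6. Chgb was at 3350.0 against 486 CPM, but 468 of its 877 UMIs came from 1 cell.

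Markers of beta cells did not all reach their beta-cell level in the Iapp-rich cells. Nkx6-1 was at 141 CPM against 62.8, beside 139 CPM in beta cells. Insulin took medians of 64.0% and 61.8% of UMIs in beta cells, far more than in the Iapp-rich cells. Hormone-free scaling was not run on this split, so whether Nkx6-1 reached its beta-cell level apart from hormones was not tested. G6pc2, which encodes an islet glucose-6-phosphatase, was at 45.8 CPM against 486 in beta cells, Slc2a2 at 22.9 against 212 and Ucn3 at 61.1 against 247. Slc2a2 and Ucn3 were still over the levels given above for all PP cells. In these 11 cells 3 counts make 11.5 CPM, so the Slc2a2 level rests on few UMIs and its direction is uncertain. Their insulin share had medians of 8.87% (4.16% to 13.4%) and 2.75% (1.71% to 13.6%), up to near the 15% that the rule allows. Mitochondrial transcripts had medians of 5.0% and 4.57% of UMIs, against 1.85% and 2.08% in the others. Scrublet marked 0 of the 11 cells, and whether they hold RNA of more than 1 cell was not otherwise tested.

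**Figure D4:**
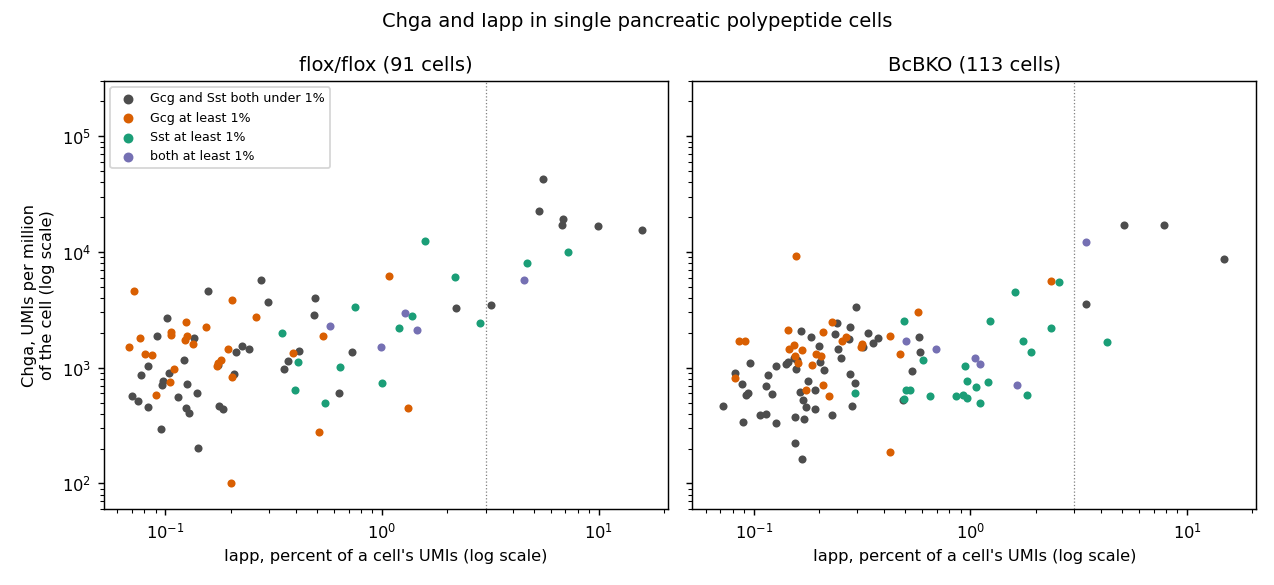
Chga level (CPM, log axis) against Iapp share of UMIs (percent, log axis) for each PP cell of both libraries, coloured by the hormones it carries; the dotted line is at 3% Iapp. The cells with neither Gcg nor Sst to the right of the line, 7 and 4 of them, lie between 3492 and 42731 CPM of Chga.

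Between the libraries the PP transcriptome was nearly the same. Of 763 genes at 100 CPM or more in either library, 667 (87.4%) had a log2 ratio (labelled BcBKO over flox/flox) within 0.25 of 0, and the median was -0.01. With a call at 1.5-fold and a counting interval that excludes 1, 2 genes were higher (0.262%) and 6 were lower (0.786%) in the library labelled BcBKO. Of the genes described above, Pyy had a log2 ratio of 0.01, Tspan8 of 0.06 and Cd9 of -0.35 (-0.46 in alpha cells). Fewer PP cells of a kind and less RNA of a gene per cell cannot be told apart in these sums.

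Both genes called higher were delta-cell transcripts. Sst was at 10870.4 and 19156 CPM, a log2 ratio of 0.82, and Rbp4 at 625 and 996 CPM, a log2 ratio of 0.66 (interval of the ratio 1.5 to 1.7). Per cell, Rbp4 ranged from 0 to 5837 CPM with a median of 222 in flox/flox and from 0 to 10639.7 CPM with a median of 355 in the library labelled BcBKO, so the cells of both libraries overlapped over most of the range. Cells with Sst alone numbered 14 of 91 and 23 of 113, and whether this makes the difference was not tested. Rbp4 had log2 ratios of 0.05 in alpha and 0.02 in delta cells, but 0.86 in beta and 1.76 in endothelial cells. Sst had 0.25 in alpha, 0.02 in delta, 1.27 in beta and 1.76 in endothelial cells, so both were also higher in beta and endothelial cells, which hold little of either. Isl1, a LIM homeobox factor of all islet endocrine cells, was next, at 187 and 249 CPM with a log2 ratio of 0.39 (1.18 to 1.5), which was under the 1.5-fold call; it was 0.33 in alpha and 0.30 in delta cells.

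Chga was the most abundant of the genes called lower. It was at 3145 and 1846 CPM, a log2 ratio of -0.77 (interval of the ratio 0.566 to 0.609), against -0.13 in alpha, -0.07 in beta and -0.27 in delta cells. Per cell, its lowest, median and highest levels were 101, 1448 and 42731 CPM in flox/flox and 162, 1116 and 17232 CPM in the library labelled BcBKO, so the cells overlapped and the upper end differed most. The 5 cells with the most Chga held 32.8% and 34.5% of its UMIs, and the 11 Iapp-rich cells held 32.2% and 15.7%. Without those 11 cells Chga was at 2314 and 1599 CPM, a log2 ratio of -0.53, which no longer reached 1.5-fold. The interval of the ratio without them was 0.662 to 0.720. Their split was chosen after the values were seen, and whether the 7 against 4 cells make the difference was not tested.

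Klf2, an endothelial and immediate-early zinc-finger factor, was at 199 and 99.6 CPM, a log2 ratio of -0.93. A Klf2 UMI was found in 51 of 91 and 45 of 113 PP cells, with per-cell medians of 37.3 and 0 CPM. The 5 cells with the most Klf2 held 45.3% and 36.9% of its UMIs. Atf3, a stress-induced factor, was at 345 and 203 CPM, a log2 ratio of -0.74, and the small heat-shock gene Hspb1 at 706 and 467, a log2 ratio of -0.59. Without the Iapp-rich cells Klf2 was at -0.92 and Atf3 at -0.79, while Hspb1 was at -0.56, which no longer reached 1.5-fold. All 15 immediate-early genes at level lay below 0 in PP cells, 2 of them called (Klf2 and Atf3), with a median of -0.25. Their median was -0.28 in delta cells and -0.22 in endothelial cells, but -0.01 in alpha and -0.06 in beta cells, so a lower level was also seen outside PP cells. In PP cells with Gcg and Sst each under 1% the median was -0.04. Of 13 heat-shock genes 12 lay below 0, 1 of them called (Hspb1), with a median of -0.07.

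Defb1, a beta-defensin, was at 109.7 and 59.9 CPM, a log2 ratio of -0.78, and -0.77 in delta cells. The Iapp-rich cells held 21.9% and 3.52% of its UMIs, and without them its log2 ratio was -0.57, which no longer reached 1.5-fold. The remaining gene called lower, Gm10076, is an unnamed gene model, at -0.63 in PP and -0.60 in delta cells. Under the call, Tm4sf4, a tetraspan membrane protein gene, had a log2 ratio of -0.55, Wnt4, a secreted WNT ligand, -0.54 (-0.50 in alpha, 0.11 in beta cells), Spp1 -0.52 (1.08 in alpha cells), Bambi, a decoy receptor of TGF-beta signals, -0.50 and Krt7, a keratin gene, -0.50. Spp1 thus differed in opposite directions in PP and in alpha cells; this difference between the classes was not tested. Hhex was under the 100 CPM level, at 16.1 and 33.8 CPM; 19 and 29 PP cells carried Sst, those with both hormones included.

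**Figure D5:**
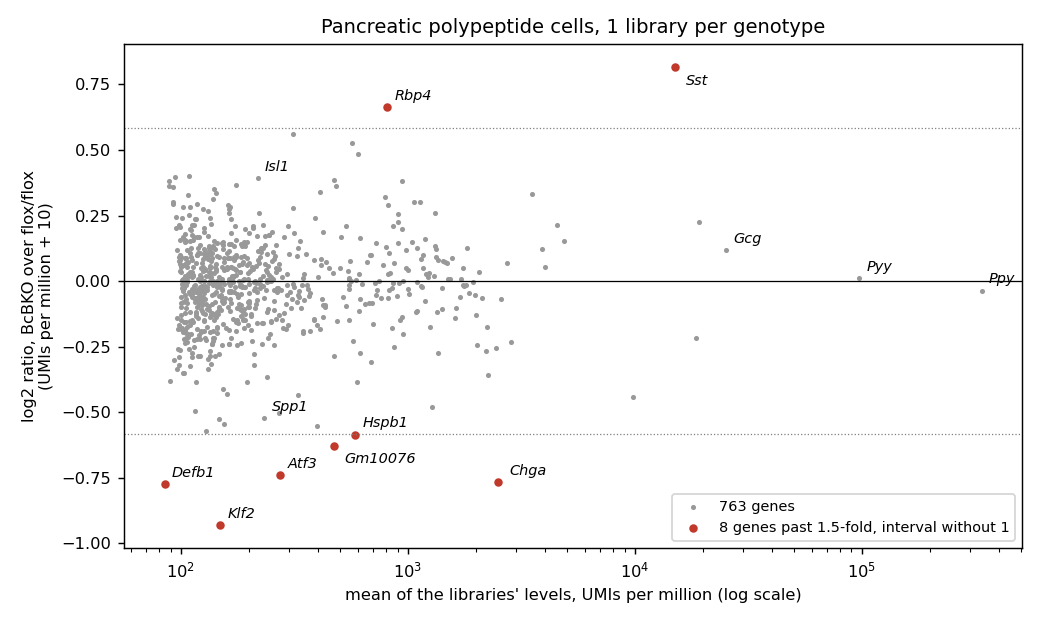
Log2 ratio of the library labelled BcBKO over flox/flox in PP cells against mean level (CPM, log axis) for 763 genes; the dotted lines are at 1.5-fold. The cloud is narrow around 0, with 667 genes within 0.25, and the 8 labelled genes in red are those called: Sst and Rbp4 above, and Klf2, Defb1, Chga, Atf3, Gm10076 and Hspb1 below.

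In other gene groups few genes reached the call between the libraries; of all 763 genes, 46.4% lay above 0. Of 18 genes of ER folding and stress at level, 10 lay above and 8 below 0, with a median of 0.01 and 0 called. Of the 13 granule genes, 2 lay above and 11 below 0, with a median of -0.09 and Chga as the 1 gene called. Of 12 mitochondrially encoded genes, 9 lay above and 3 below 0 (median 0.10, 0 called), and of 5 transcription factors 4 lay above and 1 below (median 0.10, 0 called). All 3 duct genes at level lay below 0, with a median of -0.50 and 0 called. The BAF and PBAF subunit genes at level were Pbrm1 and Smarca2, both below 0 with a median of -0.11 and 0 called, and no other of the 26 subunit genes found in the files reached 100 CPM.

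Marker transcripts of other cell types were also summed in PP cells. Duct markers, Spp1 and Krt7 among them, stood at 631 and 479 CPM in PP cells and 368 and 483 in alpha cells. In flox/flox, acinar markers summed to 327 CPM for PP and 1459 CPM for endothelial cells; in the library labelled BcBKO the endothelial sum was 171 CPM. Other summed markers stood at 34.6 and 47.7 CPM for macrophages, 5.90 and 33.3 for mural cells, 1.97 and 13.1 for lymphocytes and 16.1 and 12.7 for Schwann cells. The acinar enzyme gene Prss2 stood at 65.6 and 9.70 CPM in PP cells and 263 and 29.3 in endothelial cells, so both had less of it in the library labelled BcBKO. The defining lymphocyte genes Cd3e, Cd3g and Nkg7 and the Schwann gene Sox10 had 0 UMIs in PP cells.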

How the data were processed

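Single-cell RNA of islets was measured in 2 libraries, 1 per group. The authors deposited a matrix of counts for each, whole numbers of UMIs per gene (28692 genes) and barcode, without normalisation. Per the submitters' processing notes, Cell Ranger 3.1.0 and Seurat 4.0.0 were used on mm10, while the matrix header names version 6.1.2, and the files do not show which version counted. No source used here names the gene annotation; GENCODE M21 held 28416 of the 28692 gene identifiers. The counter's treatment of strand is likewise not given, and genes with near-identical copies are uncertain.

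Barcodes with under 500 genes or 2000 UMIs (2716 and 3078) or with over 20% mitochondrial UMIs (154 and 216) were removed. Endothelial cells had at least 5 UMIs over 6 markers. Doublets were marked with Scrublet in scanpy 1.11.5 (assumed rate 8%) and kept, and leaving them out was an alternative. UMIs were summed per class and library and divided by the sum to give CPM. Log2 ratios used a pseudocount of 10 CPM, which understates differences of low genes. Intervals are at 95%: exact conditional for ratios, Clopper-Pearson for shares, Newcombe for their difference. Counts of 0 allow up to 3 counts of the total. No test between groups was run, since each group is 1 library. The members, marker and gene lists, thresholds and tests were chosen with earlier results of these data known.

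Genes were named by rule: the islet hormones, PP-associated genes and transcription factors from 20 CPM, the 15 highest and 12 lowest in PP cells against alpha, beta and delta cells, the 8 highest and 8 lowest library ratios among genes from 100 CPM, and the extremes of each list described; hormone, mitochondrial, ribosomal, sex-linked, unnamed and acinar genes, among others, were not eligible by size. Not every gene the rule takes is reported here, and others were named after their values were seen: the genes called in a comparison, Nkx6-3, the receptor and channel genes and those of the Iapp-rich cells. The call between the libraries was checked on simulated counts with known differences. These counts had counting error only and no variation between cells, so the check does not cover genes whose UMIs come from few cells. TMM factors came from edgeR 4.0.16 (R 4.3.3); all else ran in Python 3.11.15 with pandas 2.3.3, numpy 2.4.6, matplotlib 3.10.9 and scipy 1.17.1.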

Additional observations from a re-analysis of the deposited data

How the results depend on the processing

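No paired analysis was possible because each group is 1 library. Counting limits the precision: a gene with 0 UMIs in PP cells may have up to 1.18 CPM in flox/flox. Requiring 20% Ppy put PP cells at 1.92% and 1.99% of endocrine and 1.07% and 1.18% of kept cells, and requiring Gcg and Sst each under 1% put them at 1.22% and 1.30% and at 0.670% and 0.762%. From 5000 UMIs the share of kept cells in the library labelled BcBKO was 1.83%. Genes lower than in alpha cells numbered 13 with 20% Ppy, 19 with Gcg and Sst under 1% and 2 with a pseudocount of 50 CPM. Those higher than in beta cells numbered 22 with TMM scaling and 10 at 50 CPM, and those lower 40 without hormone and mitochondrial genes in the scaling, 38 with TMM and 6 at 50 CPM. Those higher than in delta cells numbered 18 with that scaling, 16 with a pseudocount of 1 CPM and 4 at 50 CPM, and those lower 79 with Gcg and Sst under 1%, 13 with TMM, 66 at 1 CPM and 7 at 50 CPM. Between the libraries, genes higher in that labelled BcBKO numbered 1 with 5% Ppy, 10 with Gcg and Sst under 1%, 1 by means over cells and 66 with no minimum level; genes lower numbered 13, 3 at 50 CPM and 58 with no minimum. Fewer cells or another set of genes entered most of these; the cause was not tested further. Of 168 such values, 137 stayed within 1.5 times (counts) or the 95% interval (shares) and 31 did not. The 16 genes named by their library ratio kept their sign under all 14 settings, with Chga from -1.10 to -0.53, Rbp4 from 0.54 to 0.91 and Defb1 from -1.55 to -0.54. These genes were chosen as extremes of the same cells. Another pseudocount cannot change a sign, and a minimum of 1000 UMIs kept the same 91 and 113 cells. The kept signs are therefore a description and no independent support. Leaving out the cell with the most UMIs of a gene, or the Iapp-rich cells, and comparing with alpha and delta cells under 1% Ppy were chosen after seeing the data.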
